A study of Mus musculus with 2931 samples.

Results

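The 2 capillary classes of the mouse lung at postnatal day 21 (P21), labelled Car4+ capillaries and Late Car4- capillaries, were compared within the same mice. They were chosen by the authors' subtype label among the cells of the P21 mice kept in normal air, and comprised 667 of the 2931 endothelial cells of the series. The female mouse gave 57 Car4+ and 268 Late Car4- cells, and the male mouse 77 and 265. Cells of distal lung were sequenced singly from plates, in libraries cut with Tn5 transposase and without molecular identifiers, so read counts are not counts of molecules. The series also holds 1 female and 1 male mouse each of E18.5, an embryonic day, P1, P7 and P7 under hyperoxia (raised oxygen), and the P1, P7 and hyperoxia mice entered the comparison here. No strain, allele or agent other than the air breathed is named in the labels, and the labels leave unsaid if the mouse names are single animals or pools. P-values therefore measure how the difference between classes within a mouse name varied between the names of a group, pooled over the groups. Each group holds 1 female and 1 male mouse, so this spread cannot be told apart from sex. The fit leaves 4 residual degrees of freedom, and the P21 pairs alone would leave 1.

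The alveolar capillary bed is built from a pair of endothelial types. Aerocytes, which carry the carbonic anhydrase Car4, are large, thin cells that lie against the alveolar epithelium and serve gas exchange. General capillary cells carry Gpihbp1, Plvap and Kit, line the thicker side of the network and can divide and give rise to aerocytes. VEGF from the epithelium, apelin and endothelin are among the signals known to act on these cells.

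The labels matched the markers of these types, whose lists were chosen with earlier results of these data known. At an equal depth of 50000 reads per cell, the Car4+ cells of the female and male mouse had a read of a median of 11 and 10 of 14 aerocyte markers (Car4 left out) and of 2 and 1 of 12 general capillary markers. The Late Car4- cells had a median of 4 and 3 aerocyte markers and of 10 and 8 general capillary markers. In the female mouse 56 of 57 Car4+ cells and in the male mouse 77 of 77 had more aerocyte than general capillary markers. Single Car4+ cells had up to 11 general capillary markers in the female and up to 7 in the male mouse. Of the Late Car4- cells, 255 of 268 and 241 of 265 had more general capillary markers, while 7 and 17 had more aerocyte markers and were left in their labelled class. How the labels were made is not stated. If they were drawn from the same cells' expression, the tests below rank how alike the pairs of sums were and are no independent evidence that the classes differ.

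**Figure D1:**
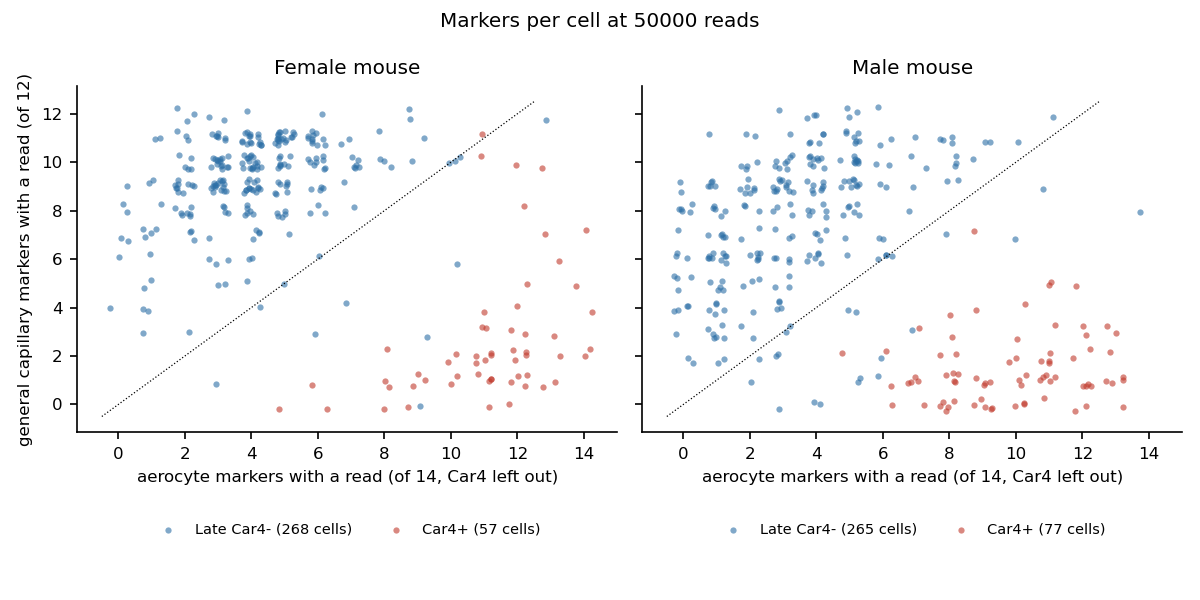
Number of aerocyte markers (horizontal, of 14, Car4 left out) and general capillary markers (vertical, of 12) with a read in each P21 cell thinned to 50000 reads, for the female (left) and male mouse (right). Each point is a cell, shifted slightly at random so that points do not hide each other, and the dotted line marks equal numbers; Car4+ cells (red) lie below it except 1 cell of the female mouse, and 496 of 533 Late Car4- cells (blue) lie above it.

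Among the Late Car4- cells at that depth, 100 of 268 in the female and 91 of 265 in the male mouse still had a Car4 read. In these, Ednrb had a read in 19% and 24.2%, against 3.57% and 9.77% of the Late Car4- cells without a Car4 read and 100% and 97.4% of the Car4+ class. Gpihbp1 had a read in 95% and 91.2% of the Late Car4- cells with a Car4 read and in 94.0% and 82.8% of those without one. The Late Car4- cells with a Car4 read also had more detected genes, a median of 2617.5 and 1607 against 1846.5 and 1048.5. Cells were sorted 1 to a well, no doublet caller was run, and the part of double cells in these values was not tested.

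Reads were summed per mouse and class. The Car4+ sums held 50183142 and 53217630 reads, and the Late Car4- sums 192024649 and 121398195 reads, for the female and male mouse in this order. Median reads per cell lay between 321081 and 742179. The median number of genes at equal depth was 2556 and 1473 in Car4+ cells and 2073.5 and 1138 in Late Car4- cells, higher in Car4+ cells in both mice. No cell name was used more than once and 0 cells shared their counts with another cell. The X-linked Xist had 371 and 306 CPM (reads per 1000000 reads of the sum) in the sums of the female mouse and 0.0376 and 0.00824 CPM in those of the male mouse, as the sex labels have it. Summed over 6 markers each, alveolar type 1 epithelium had between 48.0 and 237 CPM, type 2 epithelium between 51.0 and 176, fibroblasts between 17.6 and 185, pericytes and smooth muscle between 2.80 and 37.1, and immune cells between 14.7 and 41.7 CPM in the 4 sums. The type 1 markers were higher in Car4+ sums in both mice, 237 against 148 CPM in the female and 117 against 48.0 CPM in the male. Pericyte and smooth muscle markers were lower in both, and the other lists differed in direction between the mice. None of the 27 of these markers that were tested was called, each list had reads of all its members, and the part of such RNA in the results was not tested. In each mouse the cells of the CD31 gate and those of the gate named mesench came from different sequencing runs. Within a mouse and gate, both classes shared a run, apart from 1 Late Car4- cell per mouse from the CD45 gate.

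The share of Car4+ cells among the cells of both classes lay between 16.9% and 28.7%. In the CD31 gate it was 16.9% of 261 cells in the female mouse (95% Clopper-Pearson interval 12.5% to 22%) and 19.5% of 226 cells in the male mouse (14.5% to 25.2%). In the gate named mesench it was 20.6% of 63 cells (11.5% to 32.7%) and 28.7% of 115 cells (20.6% to 37.9%). The intervals overlap and cover counting error alone. A sort gate can set such shares, and no test was made between 2 mice.

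edgeR's quasi-likelihood test, with the mouse as a block and the pairs of the 6 younger mice in the fit, called 111 of 14694 genes at P21 (0.755%) at an adjusted p under 0.05. Of these, 84 were higher in Car4+ capillaries (0.572%) and 27 lower (0.184%), and 1156 genes had an unadjusted p under 0.05 (7.87%). The counts of called list members below stand against the 0.572% and 0.184%. All lists were chosen with earlier results of these data known, so these counts are no independent test. A gene on several lists is counted in each. The 84 higher genes included Car4, Ednrb, Apln, Kdr, Tbx2 and Tbx3, and the 27 lower genes Gpihbp1, Cd93, Ptprb, Sox17, Itga6 and Cxcl12. The number of calls rests on both P21 mice: it was 27 without the female and 4 without the male P21 mouse, and those 4 were among the 111. All 111 genes kept their direction in each of the 19 alternatives run. Many of these refit the same P21 sums, where a called gene could hardly change direction, so the kept direction is no further evidence. Ednrb, Apln, Igfbp7 and Car4 were called in all 19. The balance of directions depended on the tool: DESeq2 called 319 higher and 614 lower, with all 111 among them. The median of all fitted differences was -0.23 on the log2 scale, and single genes stand against that shift.

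**Figure D2:**
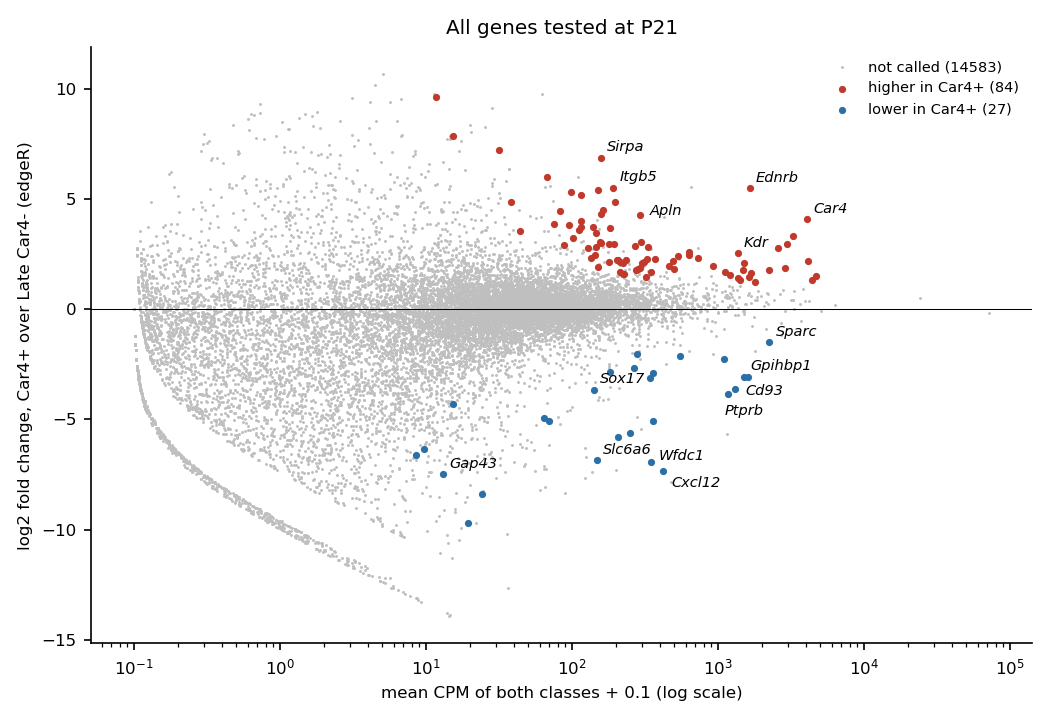
Mean CPM of both classes plus 0.1 (horizontal, log axis) and fitted log2 fold change of Car4+ over Late Car4- capillaries (vertical) for the 14694 genes tested at P21. Red and blue points are the 84 genes called higher and 27 called lower, grey points the 14583 others; the curved lower edge holds genes with no read in the smaller Car4+ sums (722 genes, against 73 with none in the Late Car4- sums), whose fitted value depends on the prior count.

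Sequences just before a RefSeq start site are shown for the class gene Car4, the receptor gene Ednrb and the peptide gene Apln, which were called higher in the Car4+ class, and for the chemokine gene Cxcl12 and the matrix gene Hmcn1, called lower there. The 250 bases end at the start that RefSeq gives on GRCm38.p6, written 5′ to 3′ along the gene's strand. For Ednrb that start lies inside the longer gene span printed for it here, so its window is internal to that span. Capitals mark a match to the letters AGGTGT, a core known for T-box factors, or CATTGT, read by SOX factors, on either strand; these were searched because Tbx2 and Tbx3 were called higher and Sox17 lower.
Car4 (chr11:84957504-84957753, plus strand): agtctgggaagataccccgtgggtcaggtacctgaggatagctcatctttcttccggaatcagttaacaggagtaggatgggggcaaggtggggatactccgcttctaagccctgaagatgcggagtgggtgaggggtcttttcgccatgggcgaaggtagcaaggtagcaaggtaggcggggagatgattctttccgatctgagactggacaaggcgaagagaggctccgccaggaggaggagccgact
Ednrb (chr14:103843702-103843951, minus strand): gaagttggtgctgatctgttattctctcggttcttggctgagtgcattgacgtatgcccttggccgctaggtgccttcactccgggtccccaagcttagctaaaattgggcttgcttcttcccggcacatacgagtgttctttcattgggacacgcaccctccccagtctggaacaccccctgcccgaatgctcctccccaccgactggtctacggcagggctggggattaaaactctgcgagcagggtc
Apln (chrX:48034854-48035103, minus strand): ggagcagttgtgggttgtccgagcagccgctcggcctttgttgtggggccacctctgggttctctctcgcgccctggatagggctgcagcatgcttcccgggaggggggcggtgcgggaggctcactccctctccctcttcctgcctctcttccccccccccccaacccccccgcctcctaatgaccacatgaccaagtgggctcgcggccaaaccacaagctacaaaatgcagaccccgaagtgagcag
Cxcl12 (chr6:117168285-117168534, plus strand): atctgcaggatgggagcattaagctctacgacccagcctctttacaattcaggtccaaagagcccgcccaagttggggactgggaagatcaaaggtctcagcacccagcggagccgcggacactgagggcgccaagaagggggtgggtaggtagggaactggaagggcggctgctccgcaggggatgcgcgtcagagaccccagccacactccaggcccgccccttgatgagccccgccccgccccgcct
Hmcn1 (chr1:150993436-150993685, minus strand): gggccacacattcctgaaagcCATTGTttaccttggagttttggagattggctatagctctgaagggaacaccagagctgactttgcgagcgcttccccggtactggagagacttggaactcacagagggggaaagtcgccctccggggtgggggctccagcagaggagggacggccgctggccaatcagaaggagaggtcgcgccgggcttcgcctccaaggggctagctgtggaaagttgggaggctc

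Only the Hmcn1 window among these 5 held a match, the SOX letters. RefSeq windows were found for 53 of the 84 higher genes and 14 of the 27 lower genes. AGGTGT stood in 4 of 69 windows of higher genes (5.8%; of Cd34, Cdkn1a, Itga3 and Nkd1), in 0 of 18 windows of lower genes and in 9.73% of the 13948 windows of all genes tested. CATTGT stood in 3 of 69 windows of higher genes (4.35%), in 3 of 18 of lower genes (16.7%; of Foxp1, Hmcn1 and Tmsb10) and in 6.74% of all. The genes with a match are named for the match alone. These are letters in a short window and no measure of binding.

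The aerocyte marker genes had 13 of 15 members called higher and none lower, against 0.572% and 0.184% of all genes tested. The list was chosen with earlier results of these data known, so this count is no independent support for the classes. All 15 had both Car4+ sums above both Late Car4- sums, which held for 12.3% of all genes tested (1806). Their median log2 difference was 3.31. Car4 (chromosome 11, 84957786 to 84966044 of GRCm38, plus strand), a membrane-bound carbonic anhydrase that speeds the exchange of carbon dioxide, had 6077 CPM in the female and 9079 CPM in the male Car4+ sum, and 382 and 703 CPM in the Late Car4- sums. Its log2 fold change of 4.07 (SE 0.33, edgeR adjusted p = 0.000663) describes the class name and is no finding. SE is here the absolute log2 fold change divided by the square root of edgeR's F statistic, and so restates the test. Ednrb (chromosome 14, 103814625 to 103844402, minus strand), the endothelin receptor that clears endothelin from lung blood, had 3112 and 3307 CPM in Car4+ and 52.7 and 131 CPM in Late Car4- capillaries. Both Car4+ values lay far above both others, with a log2 fold change of 5.50 (SE 0.36, edgeR adjusted p = 0.00031). A read of Ednrb was found in 99.3% of Car4+ and 15.9% of Late Car4- cells.

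Sirpa (chromosome 2, 129592835 to 129632228, plus strand), the receptor through which CD47 restrains engulfment by macrophages, had 306 and 315 CPM in Car4+ sums and 0.875 and 10.9 CPM in Late Car4- sums. Its log2 fold change of 6.87 (SE 1.07) led the genes that passed the naming rule (edgeR adjusted p = 0.0151), and 61.9% of Car4+ cells and 2.63% of Late Car4- cells had a read. Emp2, a small membrane protein also found in type 1 epithelium, had 4742 and 5534 CPM against 507 and 1144 CPM. Igfbp7, a secreted protein of vessel walls, had 6102 and 5616 CPM against 644 and 743 CPM; its exons overlap Polr2b on the other strand, and whether counting used strand is not stated. Pmp22, a membrane protein of myelin and of cell contacts, had 3560 and 5314 CPM against 644 and 860 CPM. The 3 genes had log2 fold changes of 2.98, 3.31 and 2.78 and edgeR adjusted p-values of 0.00598, 0.000654 and 0.00151. In each of them the lowest Car4+ sum lay above the highest Late Car4- sum.

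Chst1, which sulphates keratan sulphate, had 279 and 164 CPM against 3.32 and 14.6 CPM, a log2 fold change of 5.17 (SE 0.94, edgeR adjusted p = 0.0344). It was called in 11 of 19 alternatives. Prx (periaxin, a scaffold protein) and Enho (the secreted peptide adropin) had log2 fold changes of 2.10 and 3.03. Enho overlaps Dnaic1 on the other strand, which was called too, in a short stretch at their ends. On chromosome 4 Enho begins at 41638144 and Dnaic1 ends at 41638158. Whether reads of one gene were counted for the other was not tested. The markers not called were Fibin, a secreted protein, and Rprml. Fibin had 1038 and 1501 CPM against 13.1 and 75.5 CPM and missed the threshold (log2 5.54, SE 1.62, edgeR adjusted p = 0.302). Rprml had 41.8 and 20.5 CPM against 1.62 and 12.1 CPM (edgeR adjusted p = 0.886), and in the male mouse 56.1% of its Car4+ reads came from 1 cell.

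**Figure D3:**
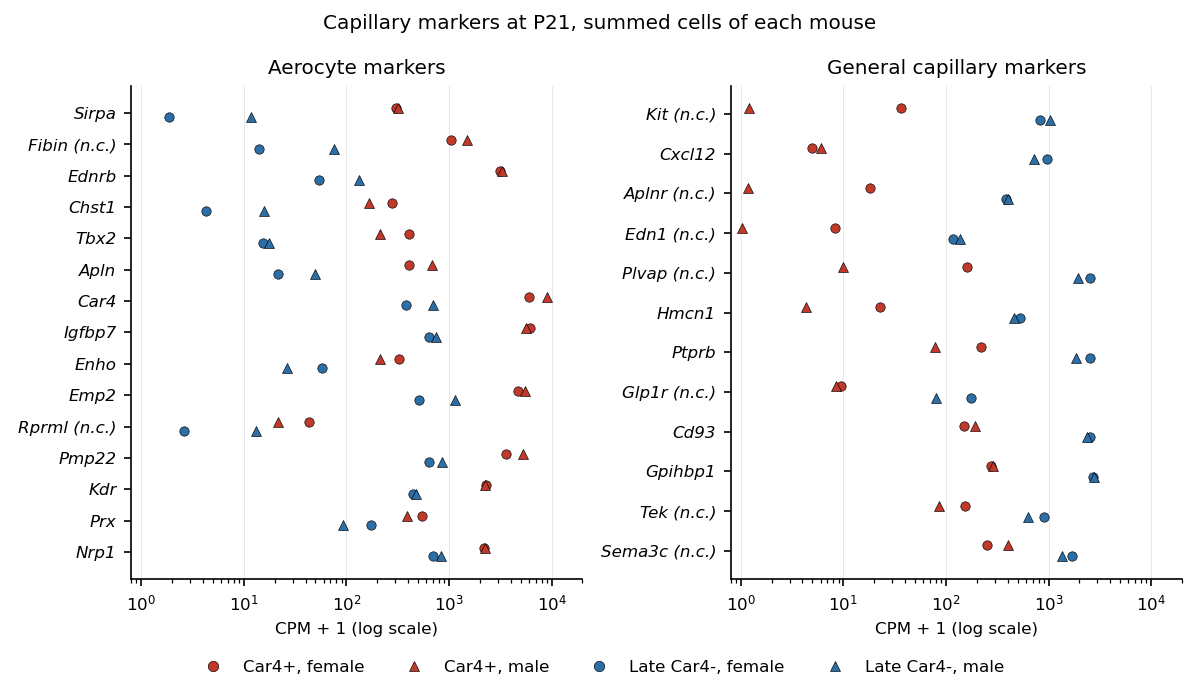
CPM plus 1 (log axis) of 15 aerocyte markers (left) and 12 general capillary markers (right) in the P21 sums of the female (circles) and male mouse (triangles), Car4+ in red and Late Car4- in blue. Genes are ordered by the size of the fitted difference and those not called are marked n.c.; in every gene shown the red and blue points do not overlap, with the red points to the right for the aerocyte markers and to the left for the others.

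The general capillary markers had 5 of 12 members called lower in Car4+ capillaries and none higher, against 0.184% and 0.572% of all genes tested. This list too was chosen with earlier results known. All 12 had both Car4+ sums below both Late Car4- sums, which held for 31% of all genes tested (4562). Their median log2 difference was -4.72. Gpihbp1 (chromosome 15, 75596628 to 75599481, plus strand), which carries lipoprotein lipase to the capillary lumen, had 271 and 288 CPM in Car4+ and 2713 and 2755 CPM in Late Car4- sums. The values hardly differed between mice, and the log2 fold change was -3.06 (SE 0.29, edgeR adjusted p = 0.00151). Cd93, a surface glycoprotein of endothelium, had 150 and 189 CPM against 2517 and 2362 CPM (log2 -3.63, SE 0.41, edgeR adjusted p = 0.00397). Hmcn1, the matrix protein hemicentin, had 21.7 and 3.34 CPM against 523 and 455 CPM (log2 -5.60, SE 0.96, edgeR adjusted p = 0.0238).

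Of the 7 members not called, Plvap had 158 and 8.94 CPM against 2553 and 1922 CPM. Plvap forms the diaphragms of endothelial openings, and its female Car4+ sum was higher than the male one (log2 -5.64, SE 1.32, edgeR adjusted p = 0.12). Sema3c, a guidance ligand, had 250 and 403 CPM against 1689 and 1351 CPM (edgeR adjusted p = 0.0616). Tek, the angiopoietin receptor, had 154 and 85.2 CPM against 903 and 628 CPM (edgeR adjusted p = 0.551), and Glp1r 8.49 and 7.50 CPM against 174 and 79.6 CPM (edgeR adjusted p = 0.336). Aplnr, Kit and Edn1 are described with their partners below. In these 7 genes the pairs of sums did not overlap, and their differences missed the threshold over all genes.

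Ligands were set beside a receptor of theirs in 5 signalling axes. The axes were picked by hand, and Kitl is in no list and outside the naming rule. Apln (chromosome X, 48025146 to 48034853, minus strand), the peptide apelin, had 411 and 683 CPM in Car4+ and 20.7 and 48.8 CPM in Late Car4- sums, a log2 fold change of 4.29 (SE 0.33, edgeR adjusted p = 0.000654). Its receptor gene Aplnr had 17.3 and 0.169 CPM against 385 and 399 CPM and was not called (log2 -7.29, SE 1.61, edgeR adjusted p = 0.0912). Apelin was thus higher in one class, and the receptor's sums were higher in the other without passing the test. Kitl (chromosome 10, 100015630 to 100100416, plus strand), the stem cell factor that binds the receptor Kit, had 1330 and 1026 CPM against 276 and 268 CPM (log2 2.33, SE 0.26, edgeR adjusted p = 0.00397). Kit itself had 35.9 and 0.207 CPM against 818 and 1040 CPM (log2 -7.85, SE 2.04, edgeR adjusted p = 0.189). Both Kit and Aplnr had a far lower CPM in the male than in the female Car4+ sum. The part of single Car4+ cells with many general capillary markers in this was not tested.

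For endothelin the order was the other way. Edn1, the peptide that constricts vessels, had 7.23 and 0.0188 CPM in Car4+ and 116 and 135 CPM in Late Car4- sums, a log2 difference of -7.09 (SE 2.77) with an edgeR adjusted p of 0.574. Its receptor Ednrb was called higher in Car4+ capillaries, as given above. Vegfa, the main vascular growth factor, had 6.18 and 0.583 CPM against 67.7 and 49.3 CPM (log2 -4.69, SE 1.70, edgeR adjusted p = 0.499). Its receptor Kdr (chromosome 5, 75932827 to 75978458, minus strand) had 2292 and 2234 CPM against 443 and 474 CPM, higher in Car4+ capillaries by 2.53 on the log2 scale (SE 0.24, edgeR adjusted p = 0.00151). The co-receptor Nrp1 had 2216 and 2226 CPM against 691 and 826 CPM (log2 1.78, SE 0.29, edgeR adjusted p = 0.0197). Of the 10 VEGF ligands and receptors tested, Kdr and Nrp1 were the ones called, 2 higher and 0 lower, with a list median of 0.38. Both are also aerocyte list members, and the same calls are counted there. Over all genes tested, 0.572% were called higher and 0.184% lower.

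Cxcl12 (chromosome 6, 117168535 to 117181367, plus strand), a chemokine that holds leukocytes and stem cells, had 3.91 and 5.02 CPM in Car4+ and 966 and 716 CPM in Late Car4- sums. Its log2 fold change was -7.32 (SE 1.27, edgeR adjusted p = 0.0361), and a read was found in 7.46% and 61.7% of the cells. Its scavenging receptor Ackr3 had 62.7 and 34.2 CPM against 104 and 182 CPM (edgeR adjusted p = 0.437). Fgf1 had 434 and 601 CPM against 79.6 and 66.6 CPM and passed narrowly (edgeR adjusted p = 0.0497), with 46.4% of its male Car4+ reads in 1 cell. It was the single called gene, higher, among 19 tested growth factors and immune signals.

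**Figure D4:**
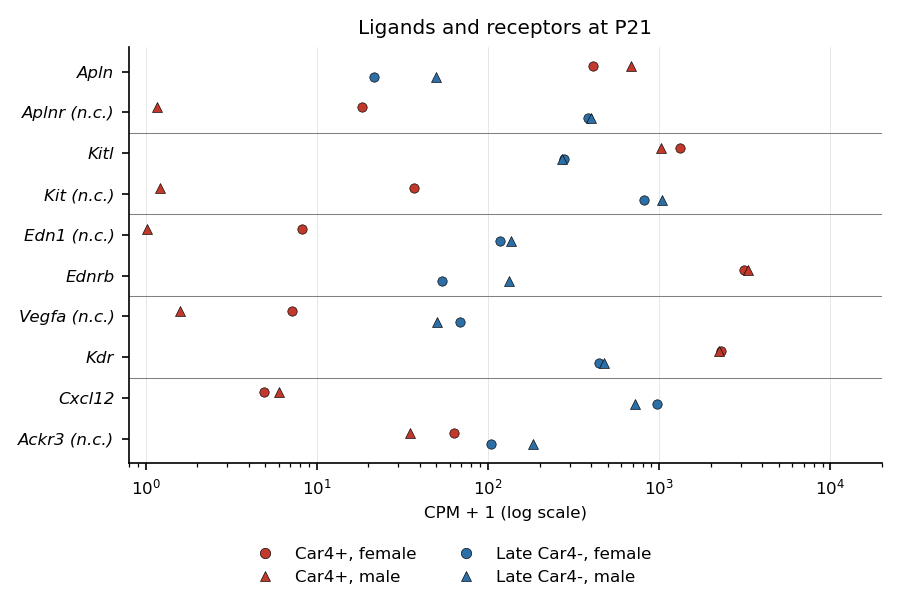
CPM plus 1 (log axis) of 5 ligands and a receptor of each in the P21 sums of the female (circles) and male mouse (triangles), Car4+ in red and Late Car4- in blue, with genes not called marked n.c. Apln and Kitl lie to the right in Car4+ capillaries while Aplnr and Kit lie to the right in Late Car4- capillaries; Edn1 and Vegfa lie to the right in Late Car4- and their receptors Ednrb and Kdr in Car4+ capillaries.

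Transcription factors of endothelium had 2 of 23 members called higher and 1 lower, against 0.572% and 0.184% of all genes tested. The list median was 0.01. Tbx2 (chromosome 11, 85832551 to 85841948, plus strand), a T-box repressor, had 409 and 212 CPM in Car4+ and 14.2 and 16.8 CPM in Late Car4- sums (log2 4.48, SE 0.54, edgeR adjusted p = 0.00518). Its relative Tbx3 had 716 and 465 CPM against 198 and 100 CPM (log2 2.26, SE 0.28, edgeR adjusted p = 0.00585); Tbx3 overlaps an antisense gene that is also in the table. Sox17 (chromosome 1, 4490931 to 4497354, minus strand), known for arterial identity, had 36.3 and 8.21 CPM against 315 and 205 CPM (log2 -3.65, SE 0.56, edgeR adjusted p = 0.0148). Meox1, a homeobox factor, had 321 and 237 CPM against 21.4 and 18 CPM without passing (edgeR adjusted p = 0.0594). The others of the list were not called. Sox17 was also the 1 member called among the 5 tested arterial markers (list median -3.82). Of 5 venous markers 0 were called (list median -5.39). All 5 arterial and 4 of 5 venous markers had both Car4+ sums below both Late Car4- sums, as did 31% of all genes tested.

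Basement membrane genes and integrins, which anchor cells to matrix, had 2 of 24 members called higher and 2 lower. These counts stand against 0.572% and 0.184% of all genes tested, and the list median was -1.28. Itgb5 (chromosome 16, 33829665 to 33949338, plus strand), a partner of the alpha v subunit, had 312 and 429 CPM in Car4+ and 14.6 and 6.01 CPM in Late Car4- sums, a log2 fold change of 5.52 (SE 0.74, edgeR adjusted p = 0.00724). Itga3, a laminin-binding subunit, had 400 and 276 CPM against 65.0 and 39.6 CPM (log2 2.94, SE 0.36, edgeR adjusted p = 0.00523). Itga6 (chromosome 2, 71745616 to 71858416, plus strand), another laminin-binding subunit, had 19.5 and 1.86 CPM against 414 and 393 CPM (log2 -5.81, SE 1.04, edgeR adjusted p = 0.031). Itga3 and Itga6 were thus called in opposite directions. Itga1 and Itga5, the collagen and fibronectin receptor subunits, had log2 differences of -1.89 and -3.03 and were not called (edgeR adjusted p = 0.551 and 0.0676). Sparc, a collagen-binding matrix protein, had 1157 and 938 CPM against 3699 and 3174 CPM (log2 -1.49, SE 0.20, edgeR adjusted p = 0.00749).

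Further matrix and surface genes were called lower in Car4+ capillaries by the naming rule. Wfdc1 (chromosome 8, 119666365 to 119688222, plus strand), a secreted protein with a protease inhibitor fold, had 10.8 and 2.03 CPM against 756 and 617 CPM (log2 -6.95, SE 0.83, edgeR adjusted p = 0.00518). Slc6a6, the taurine transporter, had 6.48 and 0.676 CPM in Car4+ sums and 291 CPM in each Late Car4- sum (log2 -6.83, SE 0.90). Cemip2, which breaks down hyaluronan, had 51.3 and 5.60 CPM against 602 and 767 CPM (log2 -5.09). Eln, the elastin gene, had 8.23 and 1.24 CPM against 179 and 89.1 CPM (log2 -5.07). The naming rule required these 4 genes to be lower in both mice, and their lowest sums were in the male. Ptprb, the phosphatase that restrains Tek signalling, had 219 and 77.2 CPM against 2558 and 1853 CPM (log2 -3.84). It was the 1 member called among 5 Tie receptors and angiopoietins, of which Tie1 had 340 and 257 CPM against 650 and 530 CPM (edgeR adjusted p = 0.431). Adamts1, a secreted protease, had 57.3 and 65.1 CPM against 654 and 593 CPM (log2 -3.12). Mmrn2, a matrix protein known to bind Cd93, had 16.1 and 0.583 CPM against 155 and 86.8 CPM (log2 -4.94, SE 0.92, edgeR adjusted p = 0.042) and was called in 12 of 19 alternatives. In all of these genes both Car4+ sums lay below both Late Car4- sums, which the naming rule required of each except Tie1.

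The remaining genes that the rule named as higher were of varied function. Cdkn2b, the cell cycle inhibitor p15, had 234 and 352 CPM against 13.6 and 4.52 CPM (log2 5.42, SE 0.95, edgeR adjusted p = 0.0277). One cell held 32.1% of its Car4+ reads in the female and 14.6% in the male mouse. Krt80, a keratin, had 199 and 181 CPM against 6.85 and 4.46 CPM (log2 5.33, SE 0.76). Frrs1, a ferric reductase, had 334 and 425 CPM against 10.7 and 20.9 CPM (log2 4.88, SE 0.69). In these 3 genes both Car4+ sums lay more than 10 times above both others. Slc12a2, a sodium, potassium and chloride transporter, had 80.2 and 66.0 CPM against 5.47 and 1.60 CPM (log2 4.85, SE 0.77). Tmeff2, a membrane protein with a follistatin domain, had 250 and 347 CPM against 11.7 and 25.3 CPM (log2 4.32, SE 0.60), and Tex14, known from germ cells, 102 and 210 CPM against 3.79 and 15.8 CPM (log2 4.47, SE 0.70). Pcdhac2 had 122 and 141 CPM against 1.03 and 5.45 CPM, but it shares exons with other protocadherin alpha genes, and in the female mouse 50.9% of its Car4+ reads came from 1 cell, so its value is uncertain.

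Among 14 tested p53 targets, Cdkn1a and Phlda3 were called higher and 0 lower, against 0.572% and 0.184% of all genes tested. The list median was 0.80. Cdkn1a, the cell cycle inhibitor p21, had 3097 and 1800 CPM in Car4+ and 923 and 874 CPM in Late Car4- sums (log2 1.62, SE 0.23, edgeR adjusted p = 0.0089). Phlda3, an inhibitor of Akt, had 431 and 218 CPM against 117 and 49.1 CPM (log2 2.24, SE 0.33, edgeR adjusted p = 0.0122). The female Car4+ sum was the highest for both genes. Immediate early and heat shock genes, which respond to tissue dissociation, had 0 of 18 members called, with a list median of 0.52. The 6 cycling markers had 0 members called and summed to between 2.31 and 83.1 CPM, the highest in the male Car4+ sum.

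Leukocyte adhesion genes had 2 of 12 tested members called higher and 1 lower, against 0.572% and 0.184% of all genes tested. The lower one was Cxcl12. Icam2, a ligand of leukocyte integrins, had 4574 and 4185 CPM against 1549 and 1236 CPM (log2 1.89, SE 0.19, edgeR adjusted p = 0.00208), and Cd34 1224 and 2280 CPM against 575 and 774 CPM (log2 1.55, SE 0.24, edgeR adjusted p = 0.0144). Icam1 had 592 and 584 CPM against 114 and 94.7 CPM and was not called (log2 2.73, SE 0.88, edgeR adjusted p = 0.381). Lipid handling genes had 1 of 14 called higher and 1 lower, against the same shares of all genes. Abcg1, which exports sterols, had 365 and 336 CPM against 110 and 81.8 CPM (log2 2.11, SE 0.28, edgeR adjusted p = 0.00724), and the lower gene was Gpihbp1. Lpl, the lipase that Gpihbp1 carries, had 23 and 0 CPM against 306 and 223 CPM (edgeR adjusted p = 0.644). Of 8 tested carbonic anhydrases only Car4 was called. Car2 and Car14 had higher sums in Late Car4- capillaries, 329 and 120 against 604 and 720 CPM and 0 and 4.53 against 78.5 and 176 CPM, without passing (edgeR adjusted p = 0.452 and 0.335).

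Several lists had 0 members called in either direction. These were 13 Notch genes (list median -0.41), 20 genes of BMP and TGF-beta signalling (-0.25), 16 genes of endothelial junctions (-0.04), 7 of caveolae (0.28), 13 of coagulation control (0.15), 10 of sphingosine 1-phosphate (0.61), 20 of axon guidance (-0.33) and 11 of MHC class I (0.02). The median of all genes was -0.23. The 7 MHC class II genes were not called either. All 7 had both Car4+ sums below both others, as did 31% of all genes tested, and together they had 6.30 and 0.132 CPM in Car4+ and 111 and 116 CPM in Late Car4- sums. Of these, H2-Ab1 had a read in 3.73% of Car4+ and 8.63% of Late Car4- cells. Cav1, the main protein of caveolae, had 1274 and 1400 CPM against 2969 and 2950 CPM (log2 -0.92, SE 0.21, edgeR adjusted p = 0.106). Vwf, which venous and larger vessels carry, had 2.87 and 0.0376 CPM against 123 and 233 CPM (edgeR adjusted p = 0.147), and Gja4, an arterial gap junction gene, 29.6 and 7.42 CPM against 704 and 379 CPM (edgeR adjusted p = 0.197). Of 15 vasomotor genes Ednrb alone was called, with a list median of -2.40 and 10 members (of 15) whose Car4+ sums lay below both others, as held for 31% of all genes tested. A missed threshold with 2 mice does not show that these genes were alike in the classes.

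Nearly all called genes had the same direction in each mouse and sort gate. Of the 84 higher genes, 84 and 83 had a higher Car4+ sum in the CD31 gate of the female and male mouse, and 83 and 84 in the gate named mesench. Among all genes tested, between 33.8% and 37.9% were higher there. Of the 27 lower genes, 27 and 27 were lower in the CD31 gate and 27 and 26 in the other, against 52% to 63.2% of all genes. In the CD31 gate Ednrb had 2984 and 1609 CPM in Car4+ and 59.5 and 188 CPM in Late Car4- sums. In the other gate it had 3751 and 4583 CPM against 24.4 and 50.3 CPM. The gates split the same cells that gave the calls and are no second test.

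In the younger mice the Car4+ class was set against Early Car4- capillaries, so this comparison changes the age and the Early or Late label together. Some younger cells are labelled Late and a few P21 cells Early; they were not used here, and the parts of age and label were not tested. The 6 younger mice were in the same fit, where they set the spread and not the P21 difference. They thus had a part in which genes were called, and they carry the authors' same Car4+ label. The shares below are therefore no second test. Of the 84 genes higher at P21, 80 were higher in Car4+ capillaries in each of these 6 mice (95.2%), as were 2.75% of all genes tested. Of the 27 lower genes, 21 were lower in each (77.8%, against 12.8% of all genes). The genes without this were Adam12, Bicd2, Ccnd3 and St6galnac5 among the higher and 1700017B05Rik, Gap43, Mmrn2, Sox17, Sparc and Tubb2b among the lower; they are named by this count and not by the naming rule. Ednrb had 2826 and 3344 CPM at P1 and 2547 and 3021 CPM at P7 in Car4+ capillaries, against 226 and 443 CPM and 95.3 and 213 CPM. Gpihbp1 had 211 and 288 CPM at P1 and 156 and 333 CPM at P7 against 1979 and 3281 CPM and 1424 and 1945 CPM. Both genes thus had pairs of sums apart at every age measured. Sox17 at P1 had 220 and 418 CPM in Car4+ and 352 and 331 CPM in Early Car4- sums, which overlap.

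**Figure D5:**
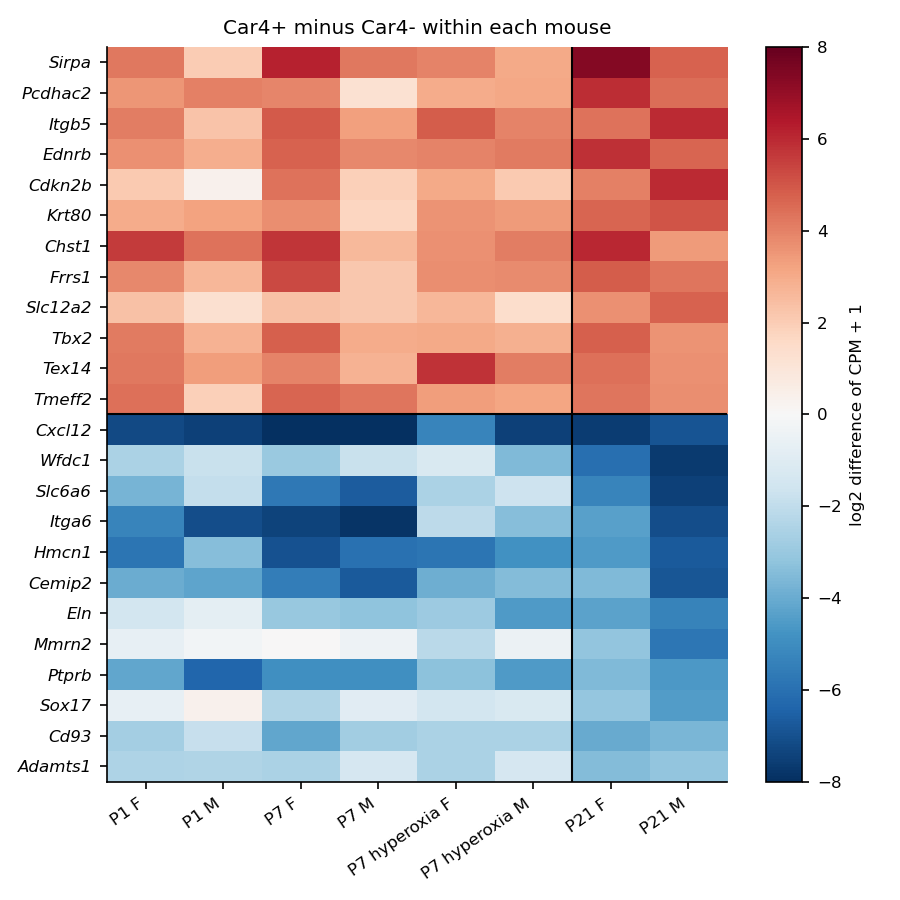
Log2 difference of CPM plus 1 between the Car4+ sum and the Car4- sum (Early at P1 and P7, Late at P21) of each of 8 mice (columns) for the 12 genes named as higher and the 12 named as lower at P21 (rows). Red means higher and blue lower in Car4+ capillaries; the P21 columns to the right of the line chose the genes, and among the younger mice Mmrn2 and Sox17 hold the palest cells among the lower genes.

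The change of the difference with age, P21 less the mean of P1 and P7 in normal air, was called for 1 of 14694 genes (0.00681%). Before adjustment, 449 genes (3.06%) had a p under 0.05. With DESeq2, 97 genes were called as raised and 72 as lowered. The called gene was Gap43 (chromosome 16, 42248442 to 42340651, minus strand), a growth cone protein of neurons. In Car4+ capillaries it had 202 and 546 CPM at P1, 65.0 and 30.5 CPM at P7 and 0.219 and 0.0564 CPM at P21. In Car4- capillaries it had 14.1 and 62.5 CPM at P1, 12.1 and 5.72 CPM at P7 and 28.0 and 23.6 CPM at P21. Gap43 was higher in the Car4+ class of each P1 and P7 mouse and lower in that of both P21 mice, a change of -10.69 on the log2 scale (SE 0.90, edgeR adjusted p = 0.00341). At P21 its Car4+ sums held 11 and 3 reads, and the Late Car4- reads came from 27 of 268 and 21 of 265 cells. With CD31-gate cells alone the adjusted p was 0.355 (edgeR), and without the male P21 mouse 0.0679.

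The other genes named here did not pass this test of change. Wfdc1 had a change of -4.93 (edgeR adjusted p = 0.979), with Car4+ values of 34 and 171 CPM at P1 against 197 and 588 CPM in Early Car4- capillaries. Mmrn2 had 122 and 156 CPM against 191 and 178 CPM at P1 and a change of -4.90 (edgeR adjusted p = 0.979). Cxcl12 had 0.285 and 0.0746 CPM at P1 and 0 CPM in both mice at P7 in Car4+ sums, against 190 and 186 CPM and 593 and 513 CPM, so the pairs of sums did not overlap at any of these ages. A difference that passes at P21 and a change that misses the threshold do not show that the difference was constant.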

How the data were processed

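The deposited table holds raw read counts per gene and cell, made by the authors from plate-based Tn5 libraries without molecular identifiers. Per the submitters' processing notes STAR 2.5.2b and HTSeq 0.10 were used; the notes name GRCh38, a human build, for mouse cells, so the build and the use of strand are not known here. Positions are those of GRCm38, matched by symbol. Counts were summed per mouse and class into 16 sums of 8 mice. edgeR 4.0.16 (R 4.3.3) with TMM scaling, its expression filter, the mouse as a block and a Car4+ term per group gave quasi-likelihood tests, adjusted by Benjamini-Hochberg over all 14694 genes, threshold 0.05. SE is the absolute log2 fold change divided by the square root of the F statistic of the test. Tests were tried on simulated counts. Both classes of a pair came from the same mouse; the correlation of their deviations from the group means was 0.115 at P21, 0.157 at P1, 0.0962 at P7 and 0.0959 under hyperoxia. Besides list members, the text names up to 12 called genes per direction with the largest fold change, sums apart, at least 50 CPM and a read in 25% of cells of the higher class; predicted, Riken, ribosomal, mitochondrial and pseudogene symbols were left out. For the change with age, called genes reaching 50 CPM are named, up to 5 per direction. Kitl meets none of these rules and was picked by hand as the ligand of Kit. Members, lists and rules were chosen with earlier results of these data known. Alternatives were DESeq2 1.42.0, limma 3.58.1, other scaling, no filter, the CD31 gate, thinned cells, no block, P21 alone, the deepest 5% of cells left out and each mouse left out.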

Additional observations from a re-analysis of the deposited data

Results flagged for a closer look

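Gap43 differed between ages under the same contrast. Its log2 difference of Car4+ over Car4- capillaries changed by -10.69 (SE 0.90, edgeR adjusted p = 0.00341, 2 mice per age) from P1 and P7 to P21, and the Car4+ class was higher in 4 of 4 younger mice in normal air and lower in 2 of 2 P21 mice. In the hyperoxia mice it had 105 and 310 CPM in Car4+ and 18.2 and 16.6 CPM in Early Car4- capillaries, the direction of the P1 and P7 mice. At P21, 39.4% and 20.7% of its Late Car4- reads in the female and male mouse came from 1 cell. By gate its Late Car4- level was 33.9 and 40.0 CPM in the CD31 gate and 2.13 and 0.0603 CPM in the other. The comparison changes the Early or Late label together with age, and the part of each was not tested.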

How the results depend on the processing

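All 111 genes called at P21 kept their direction in each of the 19 alternatives, many of which refit the same P21 sums. Of 855 values of the 45 named genes called, 732 stayed past the threshold and 123 did not. Among 25 named genes not called, 113 of 475 values passed it. The count of calls at P21 was 933 with DESeq2, 176 with no filter on low counts, 459 with cells thinned to 50000 reads, 279 and 384 with limma on log2 values of mean CPM and on means of log2 CPM, and 72 without the hyperoxia mice, a choice made after seeing the data. Higher and lower calls were 228 and 231 with thinned cells, 127 and 152 and 257 and 127 with the limma settings. Leaving out each mouse in turn gave 4 to 166 calls, with 27 without the female and 4 without the male P21 mouse. Without the replicate block the count was 89, with 78 of the 111 among them, and for the change with age it was 1. That change was called for 169 genes with DESeq2, 0 with CD31-gate cells, 27 with thinned cells, 3 and 3 with limma, 2 without the deepest 5% of cells and 0 to 5 on leaving out a mouse. For Gap43 it was -9.65 with CD31-gate cells (edgeR adjusted p = 0.355), -2.81 with limma on means of log2 CPM (adjusted p = 0.127) and -10.001 without the male P21 mouse (edgeR adjusted p = 0.0679). The cause of these moves was not tested. With 2 mice at P21, a missed threshold does not show that a gene was alike in both classes.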

Other observations

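Ackr2, a chemokine scavenger, had 252 and 337 CPM in Car4+ and 62.3 and 52.1 CPM in Late Car4- capillaries of the female and male P21 mouse, and missed the threshold (edgeR adjusted p = 0.0646). Nos3, the endothelial nitric oxide synthase, had 4.32 and 0.0188 CPM against 35.4 and 25.9 CPM (edgeR adjusted p = 0.441), and it shares exonic sequence with Atg9b.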
